A study of Arabidopsis thaliana with 8 samples.

Results

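Chloroplasts make hydrogen peroxide whenever light drives electrons onto oxygen, and a set of peroxidases, peroxiredoxins and reductases removes it. Ascorbate peroxidases spend ascorbate on hydrogen peroxide, and the ascorbate is later regenerated at the cost of glutathione, which glutathione reductase keeps reduced. Peroxiredoxins remove peroxides with reactive cysteines that thioredoxins and NADPH-dependent reductases restore. The values below describe 7 nuclear genes of this system, taken by their probe sets on the array (a probe set is a group of short oligonucleotides that reads 1 transcript): TAPX (AT1G77490), SAPX (AT4G08390), GR (AT3G54660), GR1 (AT3G24170), AT3G52960, AT3G11630 and ty2 (AT1G43560). They are 7 of 22810 probe sets, each gene had 1 probe set, and all 7 were bright enough on enough arrays to be among the 14947 tested. One of the 7, GR1, encodes the cytosolic glutathione reductase by its known location, so the group is not strictly one of chloroplast enzymes.

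The samples were rosette leaves of 3-week-old Arabidopsis thaliana of the Columbia (Col) background, kept in the dark for 8 h and harvested 2 h after the light came back. The 4 lines were wild type (WT), the T-DNA mutant flu (SAIL_136_E05), Col plants that overexpress the ascorbate peroxidase of the thylakoid membrane (tAPX, line 14/2) and flu plants with the same overexpressor (flu tAPX). Both lines with extra peroxidase derive from 1 overexpressor line, and the sources used here do not name the promoter that drives the transgene. Each line had 2 arrays, each of RNA pooled over 3 of the 6 runs of the experiment with at least 10 plants a line, so the spread between arrays is a spread between pools. The flu mutant lacks a brake on chlorophyll synthesis, builds up protochlorophyllide in the dark and releases singlet oxygen when the light returns. The free-text sample descriptions contradict the titles on accession, line and light time for several arrays, and the titles were followed.

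Replicate arrays correlated at r between 0.95 and 0.976 over probe sets on the log2 scale, which describes the arrays only. The labelled leaf tissue was checked on 13 genes of photosynthetic mesophyll cells, of which 4 had a named probe set and all 4 were tested. The signal of RCA, which encodes Rubisco activase, averaged 30480 in WT, 28410 in flu, 29730 in tAPX and 28060 in flu tAPX. The other three, LHCB4.1, LHCB4.2 and LHCB4.3, encode light-harvesting proteins of photosystem II and were not level across the lines. The means of LHCB4.2 were 23930 in WT, 14290 in flu, 24000 in tAPX and 12570 in flu tAPX. Of 3 root genes, 2 had a named probe set, EXPA7 and GH9C1, and neither was bright enough to be tested. Of 3 guard-cell genes only FMA had a named probe set, with means between 253.8 and 315.7, and the listed genes of phloem and epidermis had none. In bulk leaves, fewer cells of a type and less RNA per cell cannot be told apart.

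Signals are MAS5 values on a linear scale, and changes are differences of log2(signal + 16), given with the standard error (SE) of the limma fit over all 8 arrays. A change was called when its p-value, adjusted over all 14947 probe sets, was under 0.05. For flu against WT, 12.5% of all tested probe sets were called lower and 11.4% higher. With each array scaled on its spike-in controls, 65.7% of the calls were higher, against 47.6% as deposited. For flu tAPX against tAPX, 18.5% were called lower and 15% higher, and 14.3% of the calls were higher with spike-in scaling, against 44.7%. The spike-in controls had a geometric mean signal between 374 and 473 on 6 arrays and of 700 and 547 on the flu tAPX arrays. Whether those controls or the deposited scaling reflect the RNA more closely was not tested.

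Of the 7 genes, 2 were called lower in flu than in WT (TAPX and AT3G52960), none was called higher, and 5 did not pass. In plants with the transgene, 3 were called lower in flu tAPX than in tAPX (AT3G52960, AT3G11630 and ty2) and 4 did not pass. The shares of all tested probe sets called lower in these comparisons were 12.5% and 18.5%. The median log2 change of the 7 was -0.51 in the first comparison and -0.68 in the second, beside -0.20 and -0.16 for all tested probe sets. In the second comparison TAPX, which did not pass, was read together with the transgene, and its value enters that median. Signals did not overlap between flu and WT for 6 genes, all lower in flu, and 42.7% of all tested probe sets were lower without overlap. Between flu tAPX and tAPX, 4 genes were lower without overlap, beside 41.1% of all, and GR1 was higher without overlap, beside 27% of all.

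**Figure D1:**
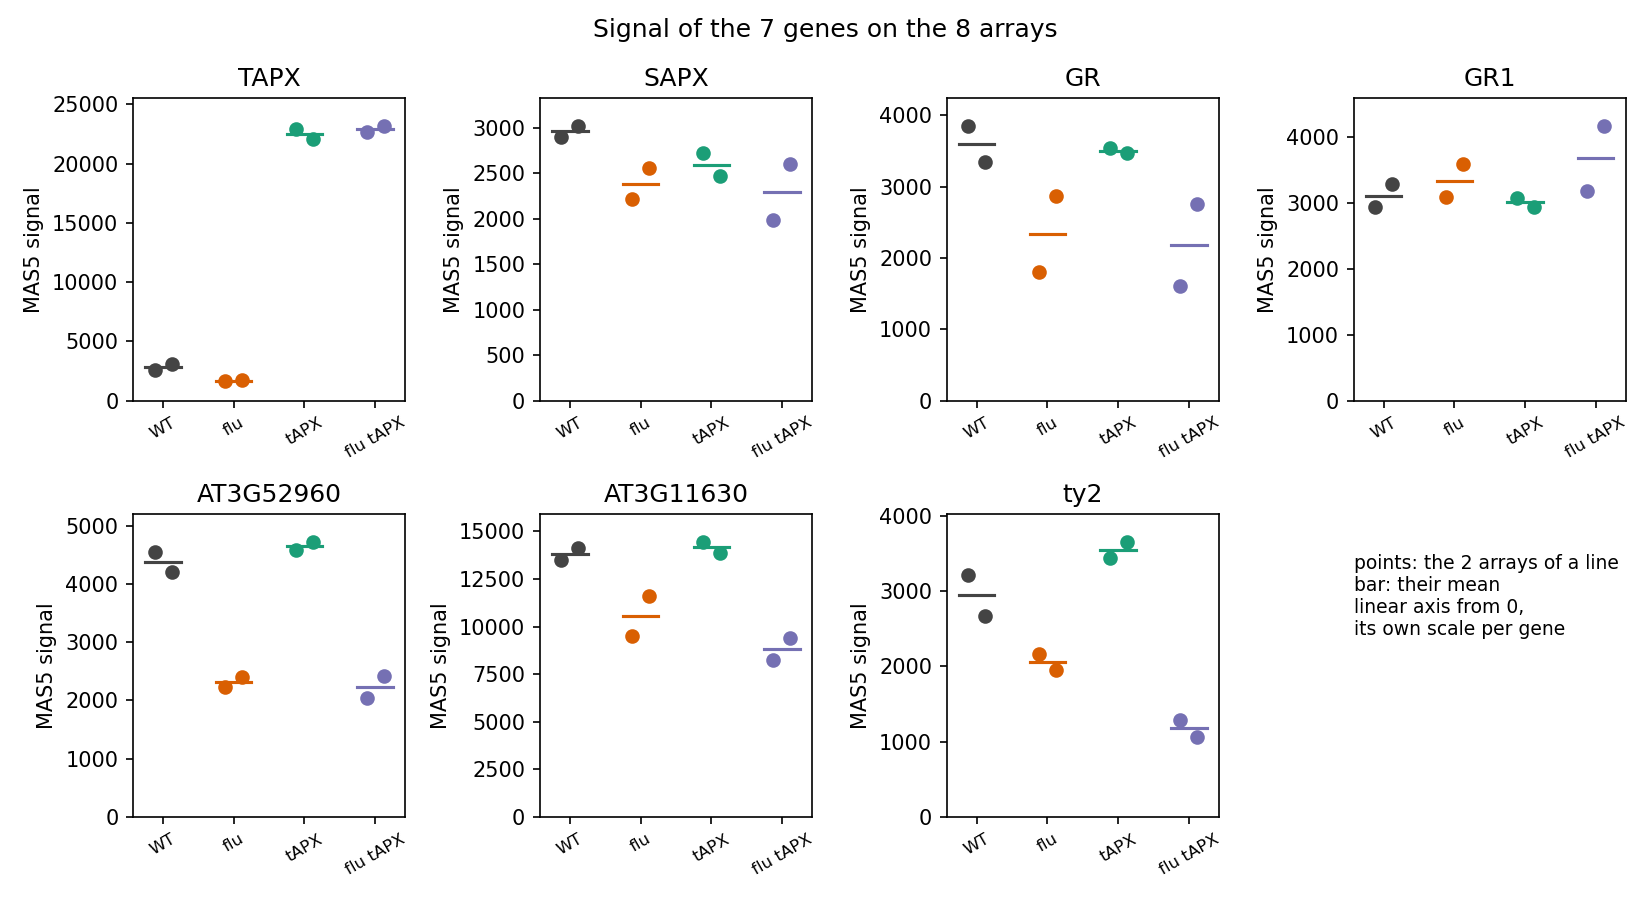
MAS5 signal (vertical axis, linear from 0, its own scale for each gene) on the 8 arrays, with points for the 2 arrays of a line and a bar for their mean. TAPX is between 22043 and 23222 in both lines with the transgene, AT3G52960 lies between 2035 and 2425 on the 4 flu arrays and above 4210 on the others, and GR1 in WT overlaps both flu and tAPX.

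TAPX encodes the ascorbate peroxidase bound to the thylakoid membrane. Its signals were 2558 and 3115 in WT and 1656 and 1729 in flu, where only the endogenous gene is read. Both flu arrays were below both WT arrays, and the gene fell by 0.73 on the log2 scale (SE 0.15, adjusted p = 0.0062), 1.66-fold. Without WT replicate 2 the change was -0.59 and did not pass (adjusted p = 0.0689). With the transgene the signals were 22959.7 and 22043 in tAPX and 22703 and 23222 in flu tAPX, which overlap (log2 0.03 ± 0.15, 95% confidence interval -0.30 to 0.36, adjusted p = 0.900). With spike-in scaling that difference was -0.64 (adjusted p = 0.023), while the median of all tested probe sets stood at -0.79. What the endogenous gene did in these 2 lines cannot be read from this probe set.

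SAPX encodes the stromal ascorbate peroxidase, the closest relative of TAPX, which is also sent to mitochondria. Its signals were 2907 and 3028 in WT, 2216 and 2557 in flu, 2725 and 2468 in tAPX, and 1985 and 2599.7 in flu tAPX. WT held both of the highest values, and flu and flu tAPX overlapped. SAPX did not pass in flu against WT (log2 -0.32 ± 0.18, 95% confidence interval -0.71 to 0.08, adjusted p = 0.222) or in flu tAPX against tAPX (-0.19 ± 0.18, 95% confidence interval -0.58 to 0.20, adjusted p = 0.444). With spike-in scaling the second value was -0.86 and passed (adjusted p = 0.0112). Without flu tAPX replicate 1 it was 0.00 (adjusted p = 0.989). The SAPX signal was not higher on the tAPX arrays than on the WT arrays, while that of TAPX was 7.93-fold higher there. The ratio of TAPX to SAPX within an array is unchanged by a scaling factor applied to the whole array. It was 0.88 and 1.03 in WT and 0.747 and 0.676 in flu. Signals of different probe sets are not on a common scale, so only the difference of such a ratio between lines can be read.

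The pair of glutathione reductases had different values. GR encodes the isoform of chloroplasts and mitochondria, known as GR2. Its signals were 3858 and 3349 in WT, 1808 and 2865 in flu, 3543 and 3469.9 in tAPX, and 1601 and 2759 in flu tAPX. All 4 flu arrays were below all 4 arrays with a functional FLU gene, and in both flu lines replicate 1 was the lower array. Replicate 1 was also the lower array in both flu lines for TAPX, SAPX, GR1, AT3G52960 and AT3G11630, but the higher for ty2. Among all tested probe sets, 42.7% were lower without overlap in flu than in WT, and 41.1% in flu tAPX than in tAPX. The share with all 4 flu arrays below the 4 others was not counted. The change of GR did not pass, neither in flu against WT (log2 -0.66 ± 0.27, adjusted p = 0.111) nor in flu tAPX against tAPX (-0.73 ± 0.27, adjusted p = 0.0633). The 95% confidence intervals were -1.26 to -0.05 and -1.34 to -0.12. GR passed in flu against WT without flu tAPX replicate 1 (adjusted p = 0.0317) or flu tAPX replicate 2 (0.0338), with the same change and a smaller SE. In flu tAPX against tAPX it passed without flu replicate 1 (adjusted p = 0.0475), flu replicate 2 (0.0486) or flu tAPX replicate 2 (log2 -1.12, adjusted p = 0.00686), and with spike-in scaling (-1.40, adjusted p = 0.00211). With single WT or flu arrays left out, the value in flu against WT lay between -0.99 and -0.33. In flu tAPX against tAPX, leaving out single arrays gave values between -1.12 and -0.34, the smallest fall without flu tAPX replicate 1.

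GR1, the cytosolic glutathione reductase, had signals of 2931 and 3284 in WT, 3093 and 3582 in flu, 3078 and 2932 in tAPX, and 3183 and 4173 in flu tAPX. WT and flu overlapped, and flu tAPX replicate 2 was the highest array. The log2 change was 0.10 ± 0.18 in flu against WT (95% confidence interval -0.29 to 0.49, adjusted p = 0.715) and 0.28 ± 0.18 in flu tAPX against tAPX (-0.12 to 0.67, adjusted p = 0.255). With spike-in scaling the second value was -0.39. The ratio of GR to GR1 within an array was 1.32 and 1.02 in WT and 1.15 and 1.18 in tAPX. In flu it was 0.584 and 0.8, and in flu tAPX 0.503 and 0.661. The 4 flu arrays were thus below the 4 others, which a scaling factor applied to a whole array would not change. The ratios were not taken after quantile normalization. This comparison was chosen after the values were seen and is given with no test.

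**Figure D2:**
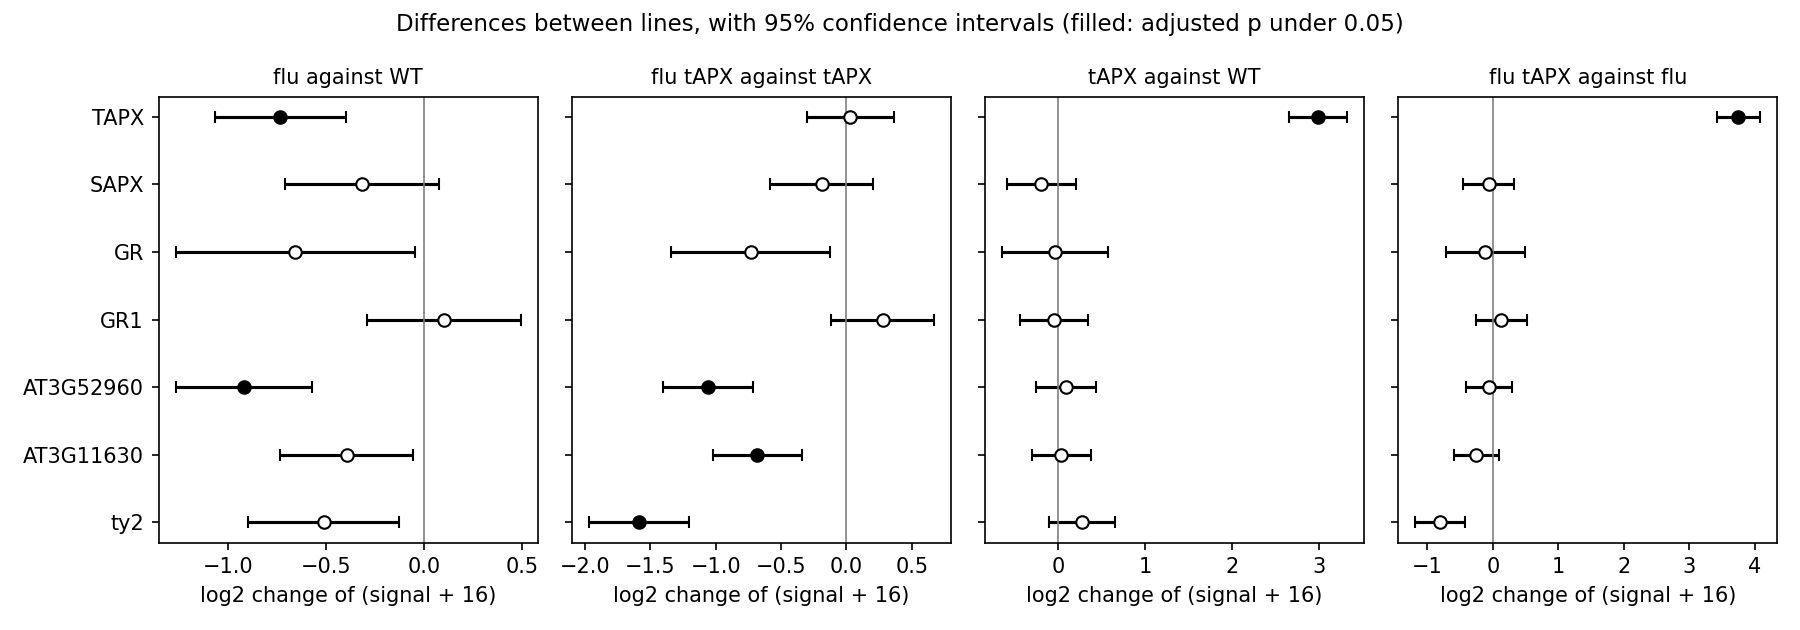
Differences of log2(signal + 16) for the 7 genes (rows) in 4 comparisons (panels, first line minus second), with 95% confidence intervals from limma and filled points where the adjusted p was under 0.05. TAPX is filled in 3 panels, AT3G52960 in both responses to flu, and AT3G11630 and ty2 in flu tAPX against tAPX. Each panel has its own horizontal scale.

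AT3G52960 encodes the type II peroxiredoxin of chloroplasts, known as PrxIIE, which reduces peroxides with glutathione and glutaredoxin. Its signals were 4553 and 4210.3 in WT and 2225 and 2404 in flu, with no overlap. The gene fell by 0.92 on the log2 scale (SE 0.16, adjusted p = 0.00214), 1.89-fold. In tAPX the signals were 4577 and 4725 and in flu tAPX 2035 and 2425, a log2 change of -1.06 ± 0.16 (adjusted p = 0.000589), 2.08-fold. Among the 7 genes it was the only one called in both responses to flu. It was called in each of the 17 alternative fits of either comparison, with changes from -0.97 to -0.86 in flu against WT and from -1.73 to -0.93 in flu tAPX against tAPX. Of all tested probe sets, 7.43% had a lower change in the first comparison and 9.69% in the second.

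AT3G11630 encodes a 2-Cys peroxiredoxin of the chloroplast stroma (2-Cys PrxA), an abundant enzyme that NTRC and thioredoxins keep reduced. It had signals of 13503 and 14124 in WT and 9516 and 11593 in flu. The groups did not overlap, but the change of -0.39 ± 0.15 did not pass (95% confidence interval -0.74 to -0.05, adjusted p = 0.0891). In 15 of 17 alternative fits it did not pass either, and it lay between -0.54 and -0.25 with single arrays left out. It passed, at the same size, without flu tAPX replicate 1 (adjusted p = 0.0465) or flu tAPX replicate 2 (0.0499). In tAPX the signals were 14457 and 13891 and in flu tAPX 8251 and 9408, a log2 change of -0.68 ± 0.15 (adjusted p = 0.00663). That call was lost without tAPX replicate 1 (log2 -0.66, adjusted p = 0.0608). The ratio of AT3G52960 to AT3G11630 within an array lay between 0.298 and 0.34 on the 4 arrays with a functional FLU gene and between 0.207 and 0.258 on the 4 flu arrays, again without overlap and with no test. The ratio of ty2 to AT3G11630 did overlap, with 0.238 and 0.189 in WT and 0.227 and 0.168 in flu. It was 0.238 and 0.263 in tAPX and 0.156 and 0.113 in flu tAPX.

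The third protein of the thiol branch, ty2, is thioredoxin y2, a small plastid redox protein that donates electrons to peroxiredoxin Q and methionine sulfoxide reductases. Its signals were 3217 and 2676 in WT, 2160.2 and 1951 in flu, 3439 and 3658 in tAPX, and 1289.5 and 1060.1 in flu tAPX. The 4 lines did not overlap, with tAPX highest, then WT, flu and flu tAPX. Of all tested probe sets, 42.7% were lower without overlap in flu than in WT and 41.1% in flu tAPX than in tAPX. Those higher in tAPX than in WT were 16.7%, and those lower in flu tAPX than in flu 13.1%. The share with all 4 lines apart was not counted. In flu against WT the change was -0.51 ± 0.17 and did not pass (adjusted p = 0.0558). In 12 of 17 alternative fits it did not pass either, as with spike-in scaling (-0.47, adjusted p = 0.222). It lay between -0.64 and -0.38 with single arrays left out. It passed with quantile normalization (-0.57, adjusted p = 0.0339), with a filter at the 60th percentile (0.0464), and without flu tAPX replicate 1 (0.0255) or 2 (0.0262), the latter 3 at -0.51. In flu tAPX against tAPX it fell by 1.59 on the log2 scale (SE 0.17, adjusted p = 7.79e-05), 3.01-fold, and 2.69% of all tested probe sets had a lower change.

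The other genes of the system came from 2 lists of locus identifiers besides the 7. Of 21 genes of ascorbate synthesis and the ascorbate-glutathione cycle, 3 were measured by a named probe set, and of 38 genes of peroxiredoxins, glutathione peroxidases and the thioredoxin system, 8. None of 10 superoxide dismutases and catalases was measured by a named probe set, so they are not analysed here. In the first list 1 gene was called higher and 1 lower in both responses to flu. Among all tested probe sets, 11.4% and 15% were called higher and 12.5% and 18.5% lower. ATMDAR2, a monodehydroascorbate reductase of the cytosol that returns oxidised ascorbate to ascorbate, had signals of 980.6 and 1373 in WT, 6912 and 6466 in flu, 1017 and 1164 in tAPX, and 8415 and 7452 in flu tAPX. It rose by log2 2.51 ± 0.19 in flu against WT (adjusted p = 8.88e-06) and by 2.85 ± 0.19 in flu tAPX against tAPX (adjusted p = 2.56e-06). VTC4, which acts in ascorbate synthesis, had means of 2098 ± 59.5 in WT and 808.6 ± 101 in flu (SD, n = 2) and changed by -1.36 ± 0.20 and -1.27 ± 0.20 in the 2 responses (adjusted p = 0.000829 and 0.000871). With 3 genes measured, the list's median change of -0.61 and -0.33 is the value of the remaining gene. That gene did not pass in either response (adjusted p = 0.0976 and 0.326).

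In the list of peroxiredoxins and the thioredoxin system, 3 of the 8 genes with a named probe set were called lower in flu against WT. In flu tAPX against tAPX 6 of 8 were, and none was called higher in either comparison. Calls of a lower signal took in 12.5% and 18.5% of all tested probe sets. The list's median change was -0.48 and -0.88, beside the -0.20 and -0.16 of all tested probe sets. NTRC, the chloroplast NADPH-dependent reductase that serves 2-Cys peroxiredoxins, had signals of 3979 and 4281 in WT and 2271 and 2738 in flu (log2 -0.72 ± 0.22, adjusted p = 0.0396). ATHM2, thioredoxin m2, changed by -0.56 ± 0.15 (adjusted p = 0.023) and TRXF2, thioredoxin f2, by -0.60 ± 0.16 (adjusted p = 0.0221). Both thioredoxins are plastid proteins known for the light activation of enzymes of carbon metabolism.

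In flu tAPX against tAPX the called genes were TRXF2 (-1.19 ± 0.16, adjusted p = 0.000336), ATHM2 (-0.97 ± 0.15, adjusted p = 0.000791), THX (thioredoxin x, -0.84 ± 0.17, adjusted p = 0.00447), NTRC (-0.95 ± 0.22, adjusted p = 0.00855), the mitochondrial peroxiredoxin PRXIIF (-0.58 ± 0.15, adjusted p = 0.0131) and AT2G04700 (-0.92 ± 0.28, adjusted p = 0.0278). AT2G04700 encodes the catalytic subunit of ferredoxin-thioredoxin reductase, which passes electrons from ferredoxin to thioredoxins. The remaining pair were SRX, sulfiredoxin, which repairs overoxidised 2-Cys peroxiredoxin, and TY1, thioredoxin y1. SRX had means of 919.9 ± 215 in WT, 1293 ± 550 in flu, 1440 ± 40.1 in tAPX and 921.4 ± 527 in flu tAPX. TY1 was dim, with means between 80.8 and 98.5.

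The calls in flu against WT depended on the setting, while the changes kept their direction and lay between -0.86 and -0.45. NTRC, ATHM2 and TRXF2 were all lost with spike-in scaling (0 of 8) and without WT replicate 1, WT replicate 2, tAPX replicate 1 or tAPX replicate 2. Without either tAPX array the changes were as before, with larger SE and adjusted p-values from 0.0531 to 0.0687, and with spike-in scaling they were -0.68, -0.51 and -0.56. Without flu replicate 1 only THX and without flu replicate 2 only ATHM2 was called. TRXF2 alone was left with no filter or with no trend in the variances. In flu tAPX against tAPX, 2 of 8 (ATHM2 and TRXF2) were left without tAPX replicate 1. The call of PRXIIF was also lost without tAPX replicate 2 (adjusted p = 0.0948), and that of AT2G04700 without tAPX replicate 2 (0.115) or flu tAPX replicate 2 (log2 -0.45, adjusted p = 0.132), with no trend in the variances (0.0701) or with only the 4 arrays compared (0.0585). SRX, not called above, passed in flu tAPX against tAPX with spike-in scaling and without flu tAPX replicate 1. Of the 4 mesophyll genes with a named probe set, LHCB4.2 (log2 -0.75, adjusted p = 0.00626) and LHCB4.3 (-0.77, adjusted p = 0.0295) were called lower in flu against WT. In flu tAPX against tAPX these were called lower again (-0.94 and -1.73), as was LHCB4.1 (-0.62, adjusted p = 0.0294). RCA did not pass in either comparison (-0.10, adjusted p = 0.665, and -0.09, adjusted p = 0.677). The list median was -0.59 and -0.78. The part of these LHCB4 changes in those of the genes above was not tested.

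**Figure D3:**
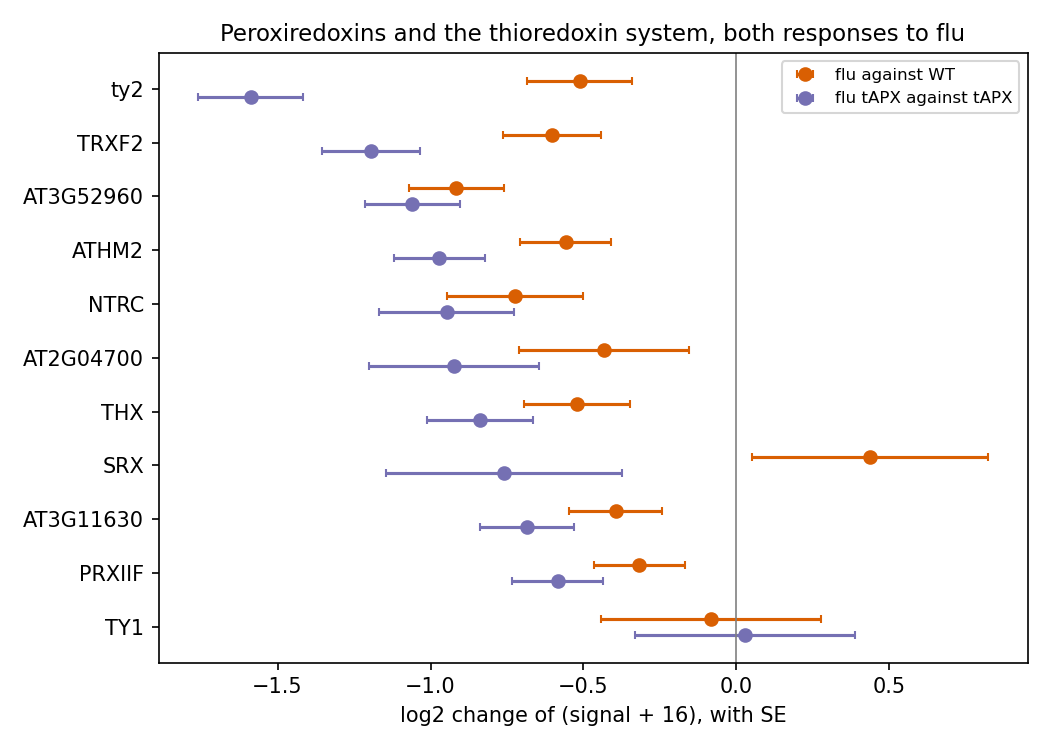
Log2 changes (horizontal axis, with SE) of the 8 genes of the peroxiredoxin and thioredoxin list with a named probe set and of AT3G52960, AT3G11630 and ty2, in flu against WT (orange) and flu tAPX against tAPX (purple). All but SRX and TY1 lie below 0 in both comparisons, from -0.32 for PRXIIF in flu against WT to -1.59 for ty2 in flu tAPX against tAPX.

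Likeness to other genes was measured as the root-mean-square difference of centred log2 values over the 8 arrays, among 8139 other tested probe sets with 1 gene. The nearest to AT3G52960 were AT3G46630 (difference 0.0547), AT5G53490 (0.0715) and Mfl1 (0.0775). The nearest to AT3G11630 were AT2G20920 (0.0533), AT2G39950 (0.062) and AT3G17940 (0.064). The nearest to ty2 were AT1G64510 (0.101), LPA2 (0.133) and AT1G29070 (0.133). AT1G64510 had mean signals of 6022 in WT, 6793 in tAPX, 3991 in flu and 2582 in flu tAPX, the same order of lines as ty2. The 8 arrays fall into those with and without flu, which many probe sets follow, so these differences are a description. No gene came close to TAPX, where the smallest difference was 1.07 (AT1G28040, with means of 33.4 in WT and 112 in tAPX).

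The comparisons of lines with and without the transgene asked whether the other 6 genes differ when TAPX is raised. The TAPX signal was higher by log2 2.99 ± 0.15 in tAPX against WT (adjusted p = 3.49e-05) and by 3.75 ± 0.15 in flu tAPX against flu (adjusted p = 3.8e-06), which reads the transgene together with the endogenous gene. TAPX was the 1 member called, and also the 1 probe set of all 14947, or 0.00669%, in either comparison. In tAPX against WT the changes of the other 6 genes lay between -0.19 (SAPX) and 0.27 (ty2), with adjusted p-values from 0.98 to 1. The 95% confidence interval was -0.26 to 0.43 for AT3G52960, -0.30 to 0.38 for AT3G11630, -0.64 to 0.57 for GR and -0.44 to 0.35 for GR1. For SAPX it was -0.59 to 0.20 and for ty2 -0.11 to 0.66. A change of log2 1 in either direction lies outside each of these 6 intervals. Signals of SAPX were lower and those of AT3G52960 and ty2 higher in tAPX than in WT without overlap, beside 26.7% and 16.7% of all tested probe sets.

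In flu tAPX against flu, the changes were -0.07 ± 0.18 for SAPX, -0.11 ± 0.27 for GR, 0.13 ± 0.18 for GR1, -0.06 ± 0.16 for AT3G52960 and -0.25 ± 0.15 for AT3G11630. The signs of SAPX, GR, GR1 and AT3G52960 turned when single arrays were left out, and none of these genes passed. The value of ty2 was -0.80 ± 0.17 (95% confidence interval -1.19 to -0.42), with an unadjusted p of 0.000892 and an adjusted p of 0.87. It ranked 12 of 14947 by the size of its moderated t value. This gene had been noticed in these data for that value, so its rank is a description. With spike-in scaling, which moved the median of all tested probe sets to -0.51, ty2 stood at -1.34 and passed (adjusted p = 0.044). AT3G11630 and ty2 were lower without overlap in flu tAPX than in flu, beside 13.1% of all tested probe sets.

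**Figure D4:**
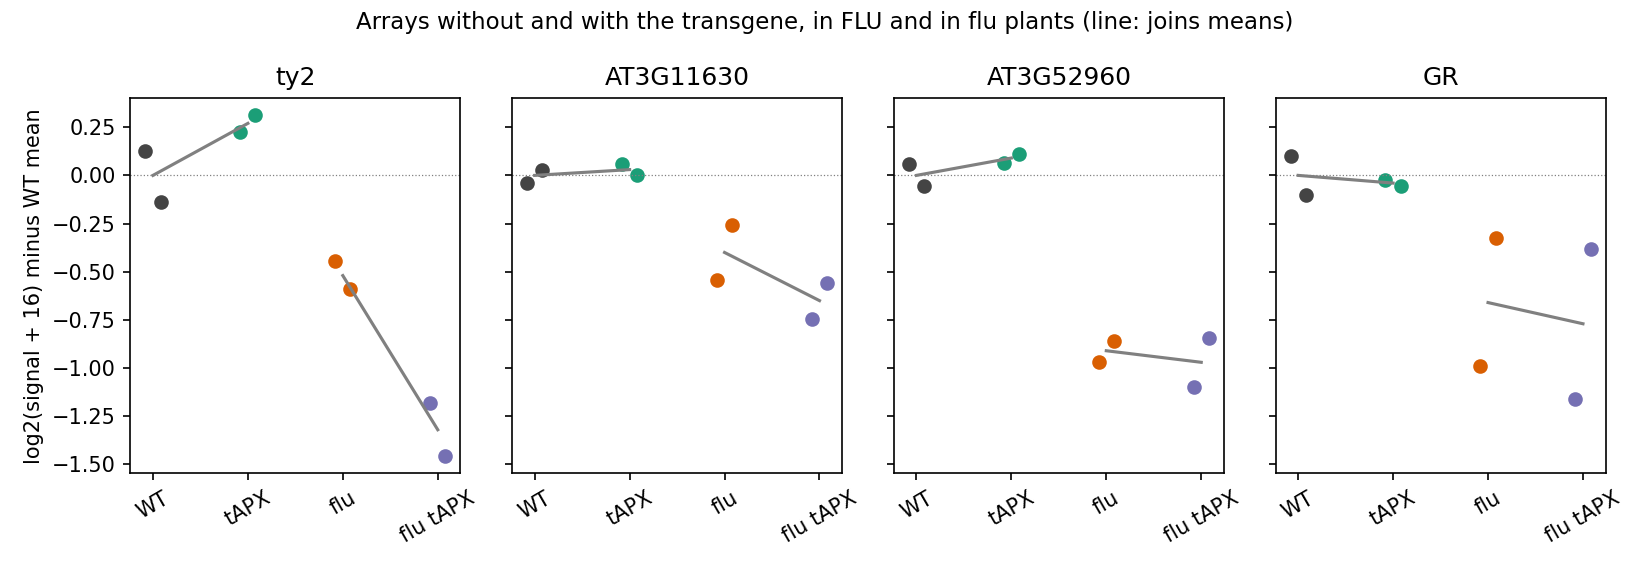
Values of log2(signal + 16) minus the WT mean (vertical axis) for ty2, AT3G11630, AT3G52960 and GR, with a point for each array and grey lines that join the means without and with the transgene. For ty2 the line goes up from WT to tAPX (0.27) and down from flu to flu tAPX (-0.80), and for AT3G52960 the changes are 0.09 and -0.06.

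The interaction, which is the difference between both responses to flu, tests whether the response changes with the transgene. limma called 0 of the 7 genes and 0% of all tested probe sets, while 2 of the 7 and 1031 of 14947 had an unadjusted p under 0.05. These 2 were ty2 (log2 -1.08 ± 0.24, 95% confidence interval -1.62 to -0.53, unadjusted p = 0.00131, adjusted p = 0.719) and TAPX (0.76 ± 0.21, unadjusted p = 0.00483, adjusted p = 0.719), whose value mixes the transgene with the endogenous gene. For ty2 the 2 responses to flu were -0.51 and -1.59. It passed without flu tAPX replicate 1 (-1.21, adjusted p = 0.046), a fit that rests on 1 flu tAPX array, takes its spread from the other lines and calls 185 probe sets. It also passed with spike-in scaling (-1.79, adjusted p = 0.0378), where the median of all tested probe sets was -0.62. For AT3G52960 the interaction was -0.14 ± 0.22 (95% confidence interval -0.63 to 0.35), for AT3G11630 -0.29 ± 0.22 (-0.77 to 0.19), for GR -0.08 ± 0.39, for GR1 0.18 ± 0.25 and for SAPX 0.13 ± 0.25.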

How the data were processed

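The data are 8 Affymetrix ATH1 arrays. The authors deposited MAS5 signal intensity values per probe set, not logged; MAS5 is named in the submitters' processing notes, without a version. The mean of the middle 96% of signals was 500.0 on each array, so each array is scaled on that mean. A rise of transcripts within the middle 96% lowers the rest, while the brightest and dimmest signals do not enter the mean. Values became log2(signal + 16), with no further normalization. Leaving out the 64 control probe sets, those above the 40th percentile of their array on at least 2 arrays were tested. limma 3.58.1 (R 4.3.3) fitted 4 line means, with variances that follow mean signal (residual degrees of freedom 4, prior 5.94 at the median). All p-values were two-sided and Benjamini-Hochberg adjusted over all tested probe sets. Precision is limited by having 2 arrays a line.

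Genes were named through the platform's annotation and the TAIR10.1 gene table: 13513 probe sets had 1 gene, 503 several and 8794 none there. The sources used here name no genome build for the array, so no coordinates are printed. The members, the lists and the rule for named genes were chosen with earlier results of these data known. The rule took all 7 members, list genes that pass in a response to flu or share a member's family, and the 3 nearest genes to each called member. Alternatives were another pseudocount, filter, variance model or scaling (spike-in, meaning the poly-A controls, or quantile), only the arrays compared, the replicate number as a block, and leaving out each array.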

Additional observations from a re-analysis of the deposited data

Results flagged for a closer look

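For ty2, thioredoxin y2, the arrays with the transgene moved in opposite directions in the 2 backgrounds: both tAPX arrays were above both WT arrays, and both flu tAPX arrays were below both flu arrays. The difference itself was tested as the interaction, at log2 -1.08 ± 0.24, and did not pass (adjusted p = 0.719). TRXF2, thioredoxin f2, showed the same opposite directions, with signals of 1515 and 1634 in WT, 992.3 and 1069 in flu, 1855 and 1760.1 in tAPX, and 822.3 and 741.2 in flu tAPX. Its interaction was -0.59 ± 0.23 and did not pass (adjusted p = 0.719). So did LHCB4.3, a mesophyll gene outside the redox system, with signals of 3466 and 4047 in WT, 2079 and 2316 in flu, 4322 and 4234 in tAPX, and 1006 and 1627 in flu tAPX. Its interaction was -0.96 ± 0.31, larger in size than that of TRXF2, and did not pass either (adjusted p = 0.719). These genes were flagged for the opposite directions, which are therefore a description. Among all tested probe sets, 16.7% were higher without overlap in tAPX than in WT, and 13.1% lower in flu tAPX than in flu. The share with both was not counted.

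A control probe set of the array named U12639, outside the tested ones, had signals of 4514 and 5269.5 in tAPX (mean 4892) and 6069 and 7712 in flu tAPX (mean 6890). In WT it had 10.5 and 49.7 and in flu 29.1 and 31.2. It was high on the 4 arrays labelled as carrying the transgene and low on the 4 others, as TAPX was. The sources used here do not say what this probe set reads.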

How the results depend on the processing

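Of 860 alternative values of 51 changes of single genes, 778 kept their direction and side of the threshold, 35 no longer passed, 24 newly passed and 23 turned sign. Poly-A (spike-in) scaling called 2335 probe sets in flu against WT, 3 in tAPX against WT, 16 in flu tAPX against flu, 8849 in flu tAPX against tAPX and 511 in the interaction, where the deposited scaling gave 3570, 1, 1, 5014 and 0. Of the 7 genes it called 2 in flu tAPX against flu (TAPX, ty2), 6 in flu tAPX against tAPX (all but GR1) and 1 in the interaction (ty2), and of the thioredoxin list 0 in flu against WT. In the lines with the transgene, the TAPX probe set reads the transgene as well. It shifted the median change of all probe sets to -0.16, 0.11, -0.51, -0.79 and -0.62 in the 5 comparisons in turn. It turned GR (0.13) and GR1 (0.12) in tAPX against WT, GR1 in flu tAPX against flu (-0.41), TAPX (-0.64) and GR1 (-0.39) in flu tAPX against tAPX, and SAPX (-0.59) and GR1 (-0.54) in the interaction. Quantile normalization turned AT3G11630 in tAPX against WT (-0.012). The thioredoxin list in flu against WT had 1 call with no filter and 1 with no trend in the variances. With single arrays left out, the 7 genes had 1 to 5 calls in flu against WT (1 without WT replicate 2, 5 without either flu tAPX array) and 0 to 1 in the interaction. The thioredoxin list had 0 to 4 in flu against WT and 2 to 7 in flu tAPX against tAPX. All probe sets called then ranged from 1852 to 4663 in flu against WT, 1 to 72 in flu tAPX against flu, 2825 to 5364 in flu tAPX against tAPX and 0 to 185 in the interaction, the fits without 1 array resting on the spread of the other lines. Genes whose sign turned in these fits were GR1 in flu against WT (-0.0042 to 0.21), GR (-0.14 to 0.066) and GR1 (-0.13 to 0.036) in tAPX against WT, and SAPX (-0.26 to 0.13), GR (-0.50 to 0.28), GR1 (-0.064 to 0.32) and AT3G52960 (-0.18 to 0.068) in flu tAPX against flu. SAPX ranged from -0.38 to 0.0037 in flu tAPX against tAPX, and the interaction from -0.067 to 0.32 for SAPX, -0.47 to 0.31 for GR and -0.018 to 0.37 for GR1. The cause of these moves was not tested.

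Replicate numbers are shared by all lines, but nothing says that they pair arrays, and deviations of same-numbered arrays correlated between -0.0786 and 0.35. With a replicate block, 3963 probe sets were called in flu against WT and 2 in tAPX against WT, ty2 passed in flu against WT (adjusted p = 0.0383) and GR in flu tAPX against tAPX (0.0313). THX also passed in flu against WT (0.0233) and SRX in flu tAPX against tAPX, and no other call of the 7 genes changed, nor of the thioredoxin list in either response to flu.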
